A study of Mus musculus with 6 samples.

Results

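Glycolysis, gluconeogenesis and the citric acid cycle were examined through 42 genes of the mouse renal cortex, taken from the deposited count table as the rows whose gene symbol matched a list of enzymes and their regulators. All 42 were found, among 21957 genes with a value in every library, and all 42 had enough counts to be tested. They comprised 16 genes of glycolysis, 7 genes that govern the entry of pyruvate into mitochondrial oxidation, 6 genes of gluconeogenesis and 13 genes of the citric acid cycle. Transcripts were counted by RNA-seq in wild-type C57BL/6 mice, an inbred laboratory strain. For 3 libraries (IR24h) the pedicles of both kidneys, with their vessels, had been clipped for 30 min and the tissue was taken after 24 h of reperfusion, a model of acute kidney injury. The other 3 libraries came from sham-treated mice, and all 6 were made from total RNA of the cortex. The sources used here do not give the steps of the sham operation, the age of the mice or whether the libraries stem from different mice. The p-values thus measure the spread between these libraries, which may be technical.

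Glycolysis splits glucose into pyruvate in the cytosol, and gluconeogenesis runs the other way through enzymes of its own that bypass the irreversible glycolytic steps. Pyruvate enters the mitochondrion and is turned into acetyl-CoA by the pyruvate dehydrogenase complex, which pyruvate dehydrogenase kinases switch off by phosphorylation, and the citric acid cycle oxidises the acetyl-CoA. In the kidney the proximal tubule makes glucose and draws most of its energy from mitochondrial oxidation, whereas more distal segments carry out most of the glycolysis. Many of these steps are served by isozymes, enzymes for the same reaction that separate genes encode.

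Libraries held 14339985 to 17061844 counts in sham and 12877237 to 15998975 in IR24h. Genes of the mitochondrial genome took 13.1 to 14.2% of the counts in sham and 26.2 to 68.9% in IR24h. All other genes held 12455991 to 14639820 counts in sham and 4008001, 11804440 and 6755476 counts in IR24h libraries 1 to 3. IR24h library 2 stood apart from the other two, with a correlation of log2 CPM (counts scaled to a common library size by TMM) across genes of 0.823 and 0.836 with IR24h libraries 1 and 3 and of 0.848 to 0.859 with the sham libraries. It also held fat and muscle transcripts. Of 8 adipocyte markers, 4 had counts in that library and were at 0 in the other 5. They were Lep with 435 counts, Plin1 with 247, Retn with 31 and Ucp1 with only 1. In IR24h library 2 the 7 skeletal muscle markers summed to 20.2 CPM against at most 3.5 CPM elsewhere. The 7 endothelial markers summed to 79.6 CPM there against 351 to 551 CPM elsewhere. The length of a gene, as recovered from its count and FPKM (a count scaled for gene length and library total), differed between the groups for 1866 of 14239 genes (13.1%), so the counting differed between sham and IR24h and cannot be told apart from the injury. It differed for 7 of the 42 genes, Pfkm, Tpi1, Pgam1, Ldhb, Pcx, Idh3b and Mdh1, and was shorter in IR24h for each of them. In the labelled cortex, 15 proximal tubule markers summed to 31290 to 36167 CPM in sham and to 11294 to 18009 CPM in IR24h, and 9 of the 15 fell. Without Kap, which was not called, the sums were 22483 to 23125 CPM in sham and 3148 to 6213 CPM in IR24h. Of 5 distal convoluted tubule markers, 3 fell (median log2 fold change -1.96), and of 7 mesenchyme markers, 6 rose (median 2.75). Other distal segments changed less. Of 6 thick ascending limb markers 1 fell (median -0.14), and of 8 collecting duct markers 2 fell (median -0.73). Their part in the results that follow was not tested. In such bulk samples, fewer cells of a type and less RNA per cell cannot be told apart.

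Of the 42 genes, 5 rose and 12 fell in IR24h, 40.5% of them, being called at an adjusted p under 0.05 (edgeR's quasi-likelihood test, Benjamini-Hochberg adjustment over all 13609 genes tested). Over all genes 16.3% passed the same test, 8.65% higher and 7.62% lower. The 5 that rose were Hk2, Pfkp and Gapdh of glycolysis, the kinase gene Pdk4 and Fbp2. Those that fell were Pfkm and Pgk1 of glycolysis, Pdk2, Pdk3 and Dlat at the entry of pyruvate, G6pc, Fbp1 and Pcx of gluconeogenesis, and Mdh1, Suclg2, Idh2 and Idh3b of the citric acid cycle. The median log2 fold change was -0.62 over the 42 genes and 0.05 over all genes tested. By group it was 0.38 for glycolysis, -0.78 for pyruvate entry, -1.55 for gluconeogenesis and -0.92 for the cycle. Among genes of equal recovered length, which leave out Pcx, it was -0.27 for gluconeogenesis, -0.77 for pyruvate entry and -0.88 for the cycle. In glycolysis 3 genes rose and 2 fell, whereas in the cycle none rose and 4 fell. Libraries did not overlap between the groups for 6 genes that were higher in IR24h and 23 that were lower, against 19.9 and 21.7% of all genes.

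**Figure D1:**
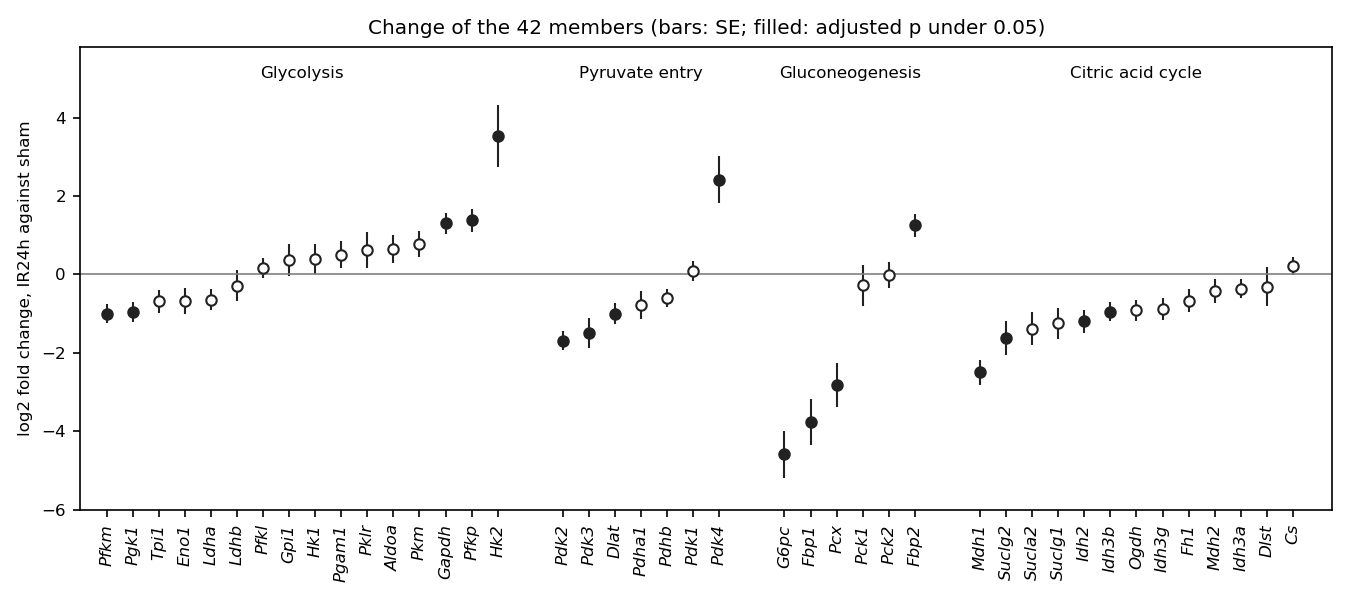
Log2 fold change of each of the 42 genes in IR24h against sham (vertical axis), ordered within 4 groups. Points are the fitted values, bars their standard errors, and filled points the 17 genes with an adjusted p under 0.05. Glycolytic genes lie on both sides of 0, while G6pc, Fbp1 and Pcx lie lowest and 12 of 13 citric acid cycle genes lie below 0.

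The number of calls depended on single libraries. Without IR24h library 2, 8 genes rose and 17 fell, including all 17 of the full comparison, but 48.3% of all genes were then called, 23.9% higher and 24.5% lower. The added genes were Aldoa, Gpi1 and Pkm, which rose, and Idh3g, Ogdh, Pdha1, Sucla2 and Suclg1, which fell. Leaving out sham library 1, 2 or 3 left 0 genes that rose and 4, 3 and 3 that fell by edgeR, with 5 higher at an unadjusted p under 0.05 in each case. Over all genes 3.73, 3.31 and 3.51% were then called, down from 16.3%. G6pc, Fbp1 and Mdh1 were called whichever library was left out, with edgeR adjusted p up to 0.0256, 0.0427 and 0.0291. Without IR24h library 1 the calls of Hk2, Pfkp, Pdk4, Pgk1, Pdk3, Dlat, Idh2, Idh3b and Suclg2 were lost, and without IR24h library 3 those of Pfkm, Pgk1, Pdk3, Dlat, Pcx and Suclg2, with 11.1 and 11.3% of all genes called. With library size as the only scaling, which moved the median of all genes to -0.39, 0 of the 42 rose (2 at an unadjusted p under 0.05) and 5 fell (Pfkm, Pdk2, G6pc, Fbp1 and Mdh1), against 7.41% of all genes. Over the whole table this scaling called 398 genes higher (2.92%) and 611 lower (4.49%) in place of 1177 and 1037. None of the 17 changed sign.

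The promoters of 3 genes are shown for the opposite ends of these changes. G6pc and Fbp1 encode the last and the preceding phosphatase of gluconeogenesis and fell most, and Hk2, a hexokinase, rose most. Each line holds the 250 bases before the start that RefSeq gives, on the gene's own strand (GRCm38.p6), and capitals mark matches to any of 4 short motifs. These were GTTAAT, an arm of the palindrome bound by HNF1 factors, TGACG, an arm of the cyclic AMP response element, ACGTG, the core of the hypoxia response element, and TATAAA, the TATA box, each searched on both strands.
G6pc: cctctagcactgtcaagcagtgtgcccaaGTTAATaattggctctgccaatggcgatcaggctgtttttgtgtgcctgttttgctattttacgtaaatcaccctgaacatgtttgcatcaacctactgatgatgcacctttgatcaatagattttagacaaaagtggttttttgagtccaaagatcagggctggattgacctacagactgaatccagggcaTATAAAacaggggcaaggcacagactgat
Fbp1: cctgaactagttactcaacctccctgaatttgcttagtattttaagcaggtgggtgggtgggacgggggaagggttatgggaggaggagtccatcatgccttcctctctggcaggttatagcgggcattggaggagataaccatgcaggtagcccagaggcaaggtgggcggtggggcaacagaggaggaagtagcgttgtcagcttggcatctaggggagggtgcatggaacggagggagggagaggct
Hk2: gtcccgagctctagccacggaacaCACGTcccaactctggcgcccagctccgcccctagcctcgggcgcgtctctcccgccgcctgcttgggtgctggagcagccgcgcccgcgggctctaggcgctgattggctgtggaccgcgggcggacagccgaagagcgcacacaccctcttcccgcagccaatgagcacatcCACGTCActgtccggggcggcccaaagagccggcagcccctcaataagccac
The G6pc window lies at chr11:101367466-101367715 on the plus strand, the Fbp1 window at chr13:62888283-62888532 on the minus strand and the Hk2 window at chr6:82774455-82774704 on the minus strand. The RefSeq start of Fbp1 and Hk2 is that of the gene in GENCODE M21, which gives the gene coordinates here. For G6pc it lies 155 bases inside the GENCODE gene, so that the last 155 bases of its window, TATAAA included, belong to the gene as GENCODE has it. In G6pc, GTTAAT began 221 bases and TATAAA 29 bases before the start. In Hk2, the reverse complement of ACGTG began 226 and 52 bases before the start, and the second of these overlapped a reverse complement of TGACG that began 50 bases before it. The Fbp1 window held none of the 4. Windows of 41 of the 42 genes were searched, at the first start listed for each gene. Of these, ACGTG was found in 31.7% of windows against 16.6% over 27025 genes, TGACG in 26.8% against 17.9%, GTTAAT in 7.32% against 6.52% and TATAAA in 2.44% against 13.0%. ACGTG was in 2 of the 5 genes that rose and in 6 of the 12 that fell. A match describes letters in the window and is not a binding site.

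Of the 6 gluconeogenic genes, G6pc, Fbp1 and Pcx fell, Fbp2 rose, and the phosphoenolpyruvate carboxykinase genes Pck1 and Pck2 were not called. Pcx encodes pyruvate carboxylase, the mitochondrial enzyme that opens the pathway. Its level was 907, 1061 and 1072 CPM in libraries 1 to 3 of sham and 74, 275 and 80.8 CPM in those of IR24h, an order kept for all values by library. All IR24h libraries lay below all sham libraries, and IR24h library 2 lay nearest to sham. The fall was 7.06-fold (log2 fold change -2.82, SE 0.56, edgeR adjusted p = 0.017). Without IR24h library 2 the log2 fold change was -3.72. The implied length of Pcx was 6465 bases in sham and 6127 bases in IR24h.

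Pck1, at chr2:173153048-173159273, encodes the cytosolic carboxykinase that makes phosphoenolpyruvate, a step known as rate-limiting for the pathway. Its levels were 1390, 1367 and 1836 CPM in sham and 1185, 2125 and 467 CPM in IR24h. The IR24h libraries lay on both sides of sham, with library 2 above every sham library and library 3 below. The log2 fold change was -0.28 (SE 0.52, edgeR adjusted p = 0.734), -0.90 without IR24h library 2 (adjusted p = 0.11) and 0.11 without IR24h library 3. Fat also expresses Pck1, and the adipocyte markers summed to 76.8, 150 and 83.9 CPM in IR24h libraries 1 to 3 against 13.4 to 23.5 CPM in sham. Fabp4 supplied most of these sums except in library 2, and without it the other 7 markers summed to 9.94, 85.4 and 0.961 CPM in IR24h and to at most 0.228 CPM in sham. Their part in the Pck1 values was not tested. Pck2, the mitochondrial form, was at 16.5 to 18 CPM in sham and at 19.7, 10.2 and 21.8 CPM in IR24h, with overlapping groups (log2 fold change -0.01, SE 0.33, edgeR adjusted p = 0.98).

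Fbp1 encodes the fructose-1,6-bisphosphatase of liver and kidney, which undoes the phosphofructokinase step. Per kilobase of exon it was the most abundant of the 6 genes in sham, at 677 CPM per kb. Fbp1 had 1105, 1020 and 1331 CPM in sham and 42.9, 162 and 50.5 CPM in IR24h. The groups were far apart, and the fall was 13.5-fold (log2 fold change -3.76, SE 0.58, edgeR adjusted p = 0.00751), or -4.63 on the log2 scale without IR24h library 2. Fbp2, which encodes the muscle form of the same enzyme, lies beside Fbp1, at chr13:62836877-62858422 against chr13:62864753-62888282 (GRCm38). Fbp2 moved the other way, from 16.3, 17.3 and 15.4 CPM in sham to 51.7, 36 and 28.9 CPM in IR24h. It rose 2.38-fold (log2 fold change 1.25, SE 0.29, edgeR adjusted p = 0.0267), with its highest value in IR24h library 1. Per kilobase, Fbp1 was at 599 to 782 and Fbp2 at no more than 11.7 CPM per kb in sham. In IR24h, Fbp1 was at 25.2, 95.2 and 29.7 and Fbp2 at 35.2, 24.5 and 19.7 CPM per kb, so that Fbp2 was the higher of the pair in library 1 and Fbp1 in libraries 2 and 3.

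G6pc, at chr11:101367561-101377903, encodes the glucose-6-phosphatase catalytic subunit, which releases free glucose at the last step. It had 302, 484 and 498 CPM in sham and 11.5, 32.5 and 8.74 CPM in IR24h, resting on 5296 to 10057 counts per sham library and 81, 636 and 100 counts in IR24h. Every IR24h library was below every sham library. G6pc fell 24.2-fold, the largest change among the 42 genes (log2 fold change -4.59, SE 0.59, edgeR adjusted p = 0.00408), and -5.41 on the log2 scale without IR24h library 2. G6pc, Fbp1 and Pcx are known from the proximal tubule. Its 15 markers had a median log2 fold change of -2.08, from -4.25 for the phosphate carrier Slc34a1 to -0.10 for Kap. The part of proximal tubule content in these falls was not tested.

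**Figure D2:**
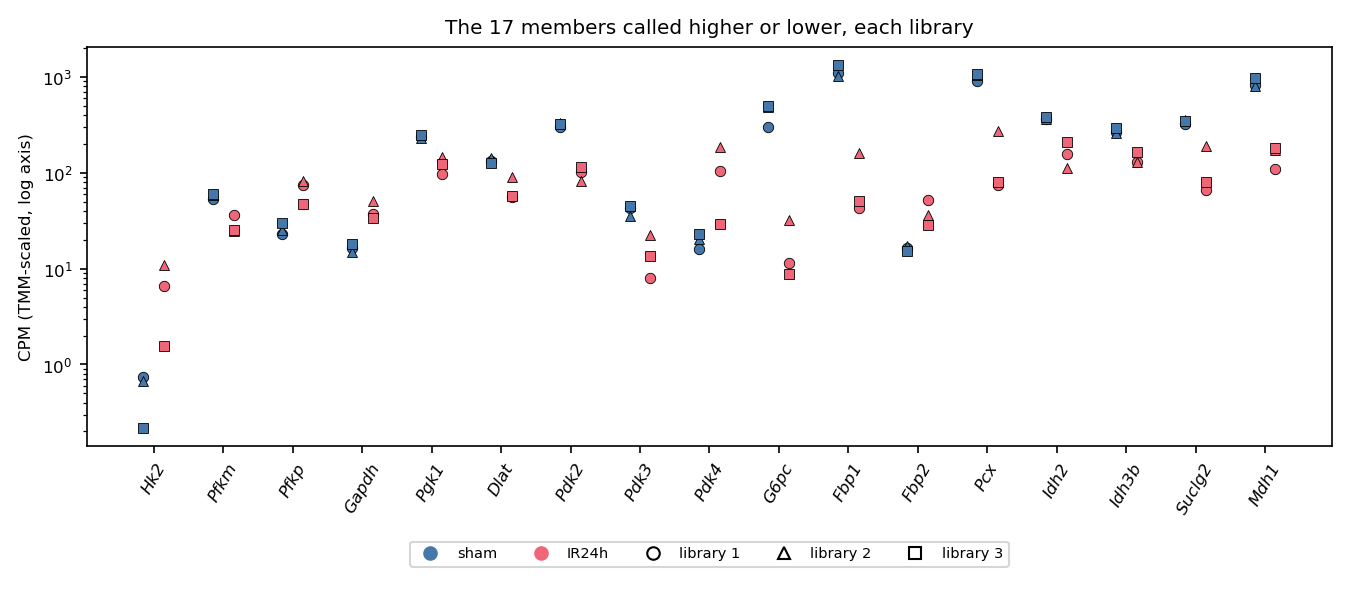
Level of the 17 genes that rose or fell, in CPM on a log axis. Blue marks are sham and red marks IR24h libraries, with circles, triangles and squares for libraries 1, 2 and 3. For each gene the 3 IR24h marks lie on one side of the 3 sham marks, farthest for G6pc, from 302 to 498 CPM in sham to 8.74 to 32.5 CPM in IR24h.

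Among the hexokinases, which trap glucose in the cell as glucose-6-phosphate, Hk2 rose and Hk1 was not called. Hk2, at chr6:82725025-82774454, was near the lower limit of detection in sham, with 13, 14 and 4 counts, or 0.742, 0.673 and 0.216 CPM. IR24h libraries 1 to 3 held 46, 213 and 18 counts, or 6.53, 10.9 and 1.57 CPM. All IR24h libraries lay above sham, but they differed several-fold among themselves. The rise was 11.6-fold (log2 fold change 3.53, SE 0.79, edgeR adjusted p = 0.0249). Muscle and fat are known to express Hk2, and IR24h library 2, with the markers of both, had the highest value. Without it the log2 fold change was 2.83 (edgeR adjusted p = 0.0194), and the part of fat and muscle transcripts in the Hk2 values was not tested. Hk1, the form found in most tissues, was at 75.4, 58.6 and 101 CPM in sham and 156, 84.1 and 68.7 CPM in IR24h (log2 fold change 0.39, SE 0.38, edgeR adjusted p = 0.496). Per kilobase, Hk1 remained the more abundant of the pair in every library, 60.9 to 326 times in sham and 5.4 to 30.5 times in IR24h.

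Phosphofructokinase commits sugar to glycolysis, and of its 3 genes Pfkp rose, Pfkm fell and Pfkl was not called. Pfkp, the platelet form, had 23.1, 25.6 and 29.9 CPM in sham and 75.6, 81.7 and 46.8 CPM in IR24h. It rose 2.6-fold (log2 fold change 1.38, SE 0.29, edgeR adjusted p = 0.0209), and the groups did not overlap. Pfkm, the muscle form, had 53.5, 59.1 and 59.6 CPM in sham and 35.9, 24.8 and 25.6 CPM in IR24h. It fell by 1.0 on the log2 scale (SE 0.25, edgeR adjusted p = 0.0359), but its implied length also fell, from 4640 bases in sham to 2957 bases in IR24h. Pfkl, the liver form, stayed within 54.8 to 65.8 CPM in sham and was at 62.9, 55.6 and 79.6 CPM in IR24h (log2 fold change 0.16, SE 0.25, edgeR adjusted p = 0.684). Levels per kilobase in sham were 17.2 for Pfkm, 8.88 for Pfkl and 1.95 CPM per kb for Pfkp. In IR24h they were 8.62, 9.9 and 5.08 CPM per kb.

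The middle of glycolysis showed no common direction. Gapdh, the glyceraldehyde-3-phosphate dehydrogenase gene, rose 2.46-fold from 16.4, 14.8 and 18 CPM in sham to 37.2, 50.3 and 33.4 CPM in IR24h (log2 fold change 1.30, SE 0.26, edgeR adjusted p = 0.018). Of its coding sequence, 94.2% lies in stretches of 50 bases shared with transcripts of other genes, 169 of them pseudogenes, so the value is uncertain. Pgk1, for phosphoglycerate kinase, had 236, 233 and 250 CPM in sham and 97.4, 148 and 124 CPM in IR24h and fell by 0.96 on the log2 scale (SE 0.26, edgeR adjusted p = 0.0426). All of its coding sequence, 100%, is shared in the same way with 4 pseudogenes. The isomerase gene Tpi1 and the enolase gene Eno1 were lower in all IR24h libraries than in sham, with log2 fold changes of -0.69 and -0.68, and were not called (edgeR adjusted p = 0.141 and 0.192). Pgam1, for phosphoglycerate mutase, had a log2 fold change of 0.50 and was not called, and its groups overlapped. Shared stretches also cover 100% of the coding sequence of Pgam1, 83.3% of Eno1, 52.9% of Pkm, 43.1% of Pdhb, 40.9% of Gpi1, 35.6% of Ldhb and 28.4% of Ldha. Aldoa, an aldolase, was at 622 to 719 CPM in sham and at 1375, 591 and 1164 CPM in IR24h. It was not called (log2 fold change 0.64, SE 0.36, edgeR adjusted p = 0.255) but passed when IR24h library 2 was left out (log2 fold change 0.91, edgeR adjusted p = 0.00841). Gpi1, for the isomerase that follows hexokinase, showed the same arrangement, with 671, 248 and 629 CPM in IR24h against 314 to 468 CPM in sham, and a log2 fold change of 0.36 with and 0.69 without that library. Of the exon bases of Gpi1, 11.5% lie opposite Gm26762.

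At the end of glycolysis, pyruvate kinase and lactate dehydrogenase were not called. Pkm, which encodes the pyruvate kinase form of most tissues, had 168, 189 and 219 CPM in sham and 390, 200 and 401 CPM in IR24h. IR24h library 2 lay within the sham range. The log2 fold change was 0.78 (SE 0.33, edgeR adjusted p = 0.143), and 1.04 without library 2 (adjusted p = 0.00436). Pklr, the liver and red cell form, showed the reverse arrangement, with 40.6, 114 and 35.7 CPM in IR24h against 38.8, 41 and 44.9 CPM in sham. Of its exon bases, 22% lie opposite Hcn3, and the sources used here do not say whether the libraries kept strand. Ldha, the lactate dehydrogenase subunit that prevails in glycolytic tissue, had 504, 462 and 588 CPM in sham and 283, 307 and 411 CPM in IR24h. All IR24h values lay below sham, with a log2 fold change of -0.64 (SE 0.27, edgeR adjusted p = 0.147). Ldhb, the subunit that prevails in oxidative tissue, was the most abundant glycolytic gene per kilobase in sham, at 473 CPM per kb. It had 710, 759 and 757 CPM in sham and 358, 500 and 958 CPM in IR24h, with overlapping groups (log2 fold change -0.29, SE 0.39, edgeR adjusted p = 0.63).

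At the entry of pyruvate, 1 of 7 genes rose and 3 fell, against 8.65 and 7.62% of all genes. Pdha1 and Pdhb encode the first enzyme of the pyruvate dehydrogenase complex and Dlat its core. Dlat fell from 134, 143 and 128 CPM in sham to 55.8, 89.7 and 57.1 CPM in IR24h (log2 fold change -1.0, SE 0.27, edgeR adjusted p = 0.0473). Pdha1, the most abundant of the 7 per kilobase in sham at 121 CPM per kb, had 468, 463 and 426 CPM in sham and 186, 400 and 204 CPM in IR24h. The groups did not overlap, and the log2 fold change was -0.78 (edgeR adjusted p = 0.162), or -1.22 without IR24h library 2 (adjusted p = 0.00211). Of the exon bases of Pdha1, 16.1% lie opposite Map3k15. Pdhb was also lower in every IR24h library, at 78.8 to 113 CPM against 139 to 146 CPM, and was not called (log2 fold change -0.60, edgeR adjusted p = 0.131).

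Of the 4 kinases that inactivate the complex, Pdk4 rose, Pdk2 and Pdk3 fell and Pdk1 was not called. Pdk4, the form known to rise in fasting and fat oxidation, had 16, 20.2 and 23.1 CPM in sham and 104, 186 and 29 CPM in IR24h. It rose 5.37-fold (log2 fold change 2.42, SE 0.61, edgeR adjusted p = 0.0359), and IR24h library 3 lay just above sham. Without IR24h library 2, which held the fat and muscle markers, the log2 fold change was 1.74 (edgeR adjusted p = 0.0251), and the part of those tissues was not tested. Pdk2, the most abundant kinase per kilobase in sham at 102 CPM per kb, fell 3.22-fold. It had 303, 335 and 327 CPM in sham and 102, 81.3 and 116 CPM in IR24h, with little spread within either group (log2 fold change -1.69, SE 0.25, edgeR adjusted p = 0.00697). Pdk3 had 43.1, 35.7 and 45.6 CPM in sham and 7.95, 22.3 and 13.6 CPM in IR24h and fell by 1.49 on the log2 scale (SE 0.39, edgeR adjusted p = 0.0394). Pdk1, a known target of hypoxia signalling, was at 28.8 to 32.9 CPM in sham and at 40.5, 29.9 and 29 CPM in IR24h, with a log2 fold change of 0.08 (SE 0.25, edgeR adjusted p = 0.841).

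In the citric acid cycle, 4 of 13 genes fell and 0 rose by edgeR, against 7.62 and 8.65% of all genes. At an unadjusted p under 0.05, 0 of the 13 were higher. DESeq2 called 8 lower and limma-voom 6, with 12.5 and 8.8% of all genes called lower, and both called 0 of the 13 higher. Citrate synthase (Cs), which starts the cycle, was the exception in direction. It had 235, 250 and 230 CPM in sham and 276, 260 and 292 CPM in IR24h, a log2 fold change of 0.21 that was not called (SE 0.23, edgeR adjusted p = 0.544). With library size as the only scaling it was -0.25. The other 12 genes had log2 fold changes below 0, and for 10 of them no IR24h library reached the sham range. Of all genes tested, 21.7% were lower in IR24h without overlap.

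Isocitrate dehydrogenase acts next. Idh2, the mitochondrial enzyme that yields NADPH, fell from 364, 366 and 383 CPM in sham to 159, 113 and 211 CPM in IR24h (log2 fold change -1.20, SE 0.30, edgeR adjusted p = 0.0335). Idh3a, Idh3b and Idh3g encode the subunits of the NAD-linked enzyme. Idh3b fell from 265, 262 and 294 CPM to 130, 130 and 164 CPM (log2 fold change -0.95, SE 0.24, edgeR adjusted p = 0.0356), with an implied length of 4782 bases in sham and 4581 bases in IR24h. Idh3g was close to the threshold (log2 fold change -0.89, edgeR adjusted p = 0.0668), and Idh3a had a log2 fold change of -0.36 (edgeR adjusted p = 0.343). For the oxoglutarate dehydrogenase complex, Ogdh was at 648 to 705 CPM in sham and at 312, 448 and 323 CPM in IR24h (log2 fold change -0.92, edgeR adjusted p = 0.0564). Its partner Dlst overlapped between the groups, from 121 to 235 CPM in sham and 57.1 to 224 CPM in IR24h.

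Succinyl-CoA synthetase is built from a common subunit, Suclg1, and 1 of 2 partners, Sucla2 for the ADP-linked and Suclg2 for the GDP-linked enzyme. Suclg2 had 327, 356 and 350 CPM in sham and 65.5, 190 and 80.1 CPM in IR24h. It fell by 1.62 on the log2 scale (SE 0.43, edgeR adjusted p = 0.0416) and by 2.25 without IR24h library 2, and 57.7% of its coding sequence is shared with 1 pseudogene. Sucla2 had 156, 151 and 167 CPM in sham and 53.3, 98.5 and 30.2 CPM in IR24h (log2 fold change -1.38, SE 0.42, edgeR adjusted p = 0.0638). Suclg1 had a log2 fold change of -1.25 (edgeR adjusted p = 0.0651). All 3 were lower in every IR24h library than in sham. Fumarate hydratase (Fh1), also without overlap, had a log2 fold change of -0.67 (edgeR adjusted p = 0.165).

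Malate dehydrogenase showed the largest change of the cycle group. Mdh1, at chr11:21556787-21572367, encodes the cytosolic form, which works in the malate-aspartate shuttle rather than in the cycle itself. It was the most abundant of the 13 genes per kilobase in sham, at 341 CPM per kb. Mdh1 had 836, 810 and 983 CPM in sham and 110, 174 and 181 CPM in IR24h and fell 5.66-fold (log2 fold change -2.50, SE 0.31, edgeR adjusted p = 0.00368). Its implied length was 4502 bases in sham and 3420 bases in IR24h. Mdh2, the mitochondrial form within the cycle, had 293, 302 and 403 CPM in sham and 195, 214 and 333 CPM in IR24h. Its groups overlapped, and the log2 fold change was -0.43 (SE 0.31, edgeR adjusted p = 0.362).

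Ratios of 2 genes within a library do not depend on how libraries are scaled, and 11 isozyme pairs and 3 pairs of opposing steps were compared. With 3 libraries against 3, the exact permutation test (2-sided) cannot give a p below 0.1, so none could pass 0.05. After adjustment over the 14 pairs the lowest value was 0.175. The groups did not overlap for 8 of the 14 pairs, and no share over other gene pairs was computed. Of single genes, 41.5% of all those tested did not overlap. Hk2/Hk1 was higher in IR24h by 2.93 on the log2 scale, Pfkp/Pfkl by 1.20, Pdk1/Pdk2 by 1.77 and Pdk4/Pdk2 by 3.78, each at the exact p of 0.1. Pfkm/Pfkl was lower, at -1.16, and Mdh1/Mdh2 lower, at -2.08, also at the exact p of 0.1. In both pairs the implied length of the first gene was shorter in IR24h, and that of the second was the same. It went from 4640 to 2957 bases for Pfkm and from 4502 to 3420 bases for Mdh1. A difference in counting that affects 1 gene of a pair does not cancel in the ratio. The ratio Mdh1/Mdh2 per kilobase was 3.39 to 3.96 in sham and 0.753 to 1.13 in IR24h.

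Pkm/Pklr, Ldha/Ldhb, Pdk3/Pdk2, Pck1/Pck2 and Sucla2/Suclg2 overlapped between the groups, with log2 differences of 0.32, -0.23, 0.09, -0.44 and 0.24. For Pkm/Pklr the log2 ratio was 2.11 to 2.29 in sham and 3.26, 0.80 and 3.49 in IR24h, with library 2 below sham and libraries 1 and 3 above it. For Pck1/Pck2 it was 6.27 to 6.80 in sham and 5.90, 7.70 and 4.42 in IR24h. Among opposing steps, Hk2/G6pc was higher in IR24h by 8.08 on the log2 scale and Pfkp/Fbp1 by 5.36, both without overlap. Per kilobase, G6pc exceeded Hk2 1007 to 5703 times in sham and 4.35 to 13.7 times in IR24h. Fbp1 exceeded Pfkp 313 to 377 times in sham and 4.47 to 15.6 times in IR24h. In sham, Hk2 and Pfkp were minor forms, at means of 0.0911 and 1.95 CPM per kb. Hk1 was at 9.16, Pfkm at 17.2 and Pfkl at 8.88 CPM per kb there. Opposing-step ratios with these other forms were not computed, so the ratios given do not describe the whole step. Pkm/Pck1 overlapped (log2 difference 1.25, exact p = 0.4), with IR24h library 2 below the sham libraries and libraries 1 and 3 above them.

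**Figure D3:**
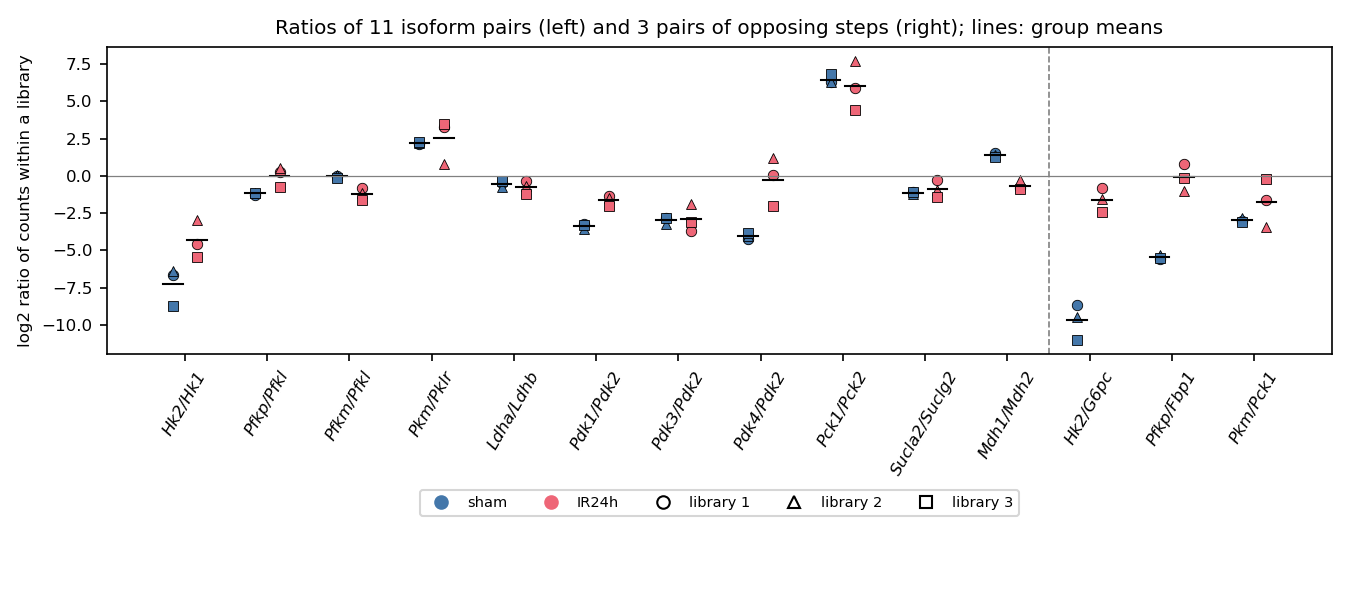
Log2 ratio of the counts of 2 genes within each library (vertical axis), for 11 isozyme pairs and, right of the dashed line, 3 pairs of opposing steps. Blue marks are sham, red marks IR24h, shapes number the libraries, and black lines are group means. Hk2/G6pc moved farthest, from -8.62 and below in sham to -2.44 and above in IR24h.

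The injured libraries were also compared one by one with the sham mean. In IR24h libraries 1, 2 and 3 the median log2 ratio was 0.03, -0.14 and 0.40 for glycolysis, -1.27, -0.59 and -1.15 for pyruvate entry, -2.07, -1.32 and -2.68 for gluconeogenesis and -1.13, -0.75 and -0.74 for the cycle. The 3 libraries thus ranked the groups alike at the lower end, with gluconeogenesis lowest in each and pyruvate entry or the cycle next. That order did not hold in the edgeR fit restricted to genes of equal implied length, which leaves out Pcx. The median log2 fold change there was -0.27 for gluconeogenesis, -0.77 for pyruvate entry and -0.88 for the cycle. Of the cycle genes, 12, 12 and 10 of 13 were below the sham mean in libraries 1, 2 and 3. For glycolysis the numbers were 8, 9 and 7 of 16. Of the 12 genes that fell, 7 were highest among the injured libraries in library 2, as were 4 of the 5 that rose. Summed over the 42 genes, the level was 12907 to 14932 CPM in sham and 7860, 8936 and 8516 CPM in IR24h.

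**Figure D4:**
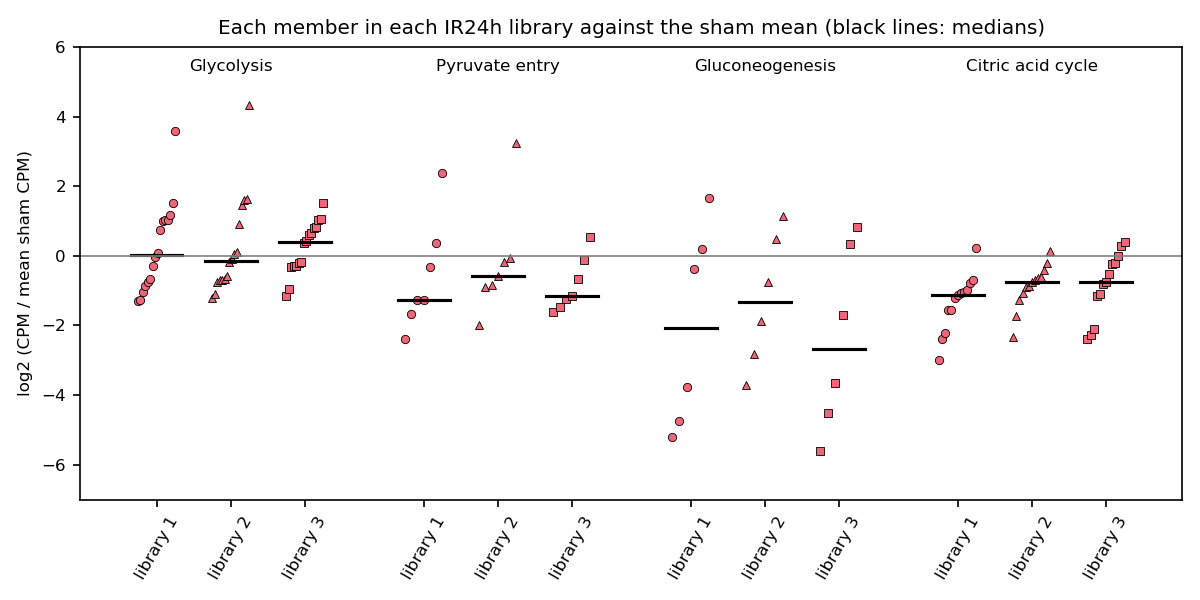
Log2 ratio of each gene's CPM in 1 IR24h library to its mean in sham (vertical axis), for 4 gene groups and IR24h libraries 1 to 3. Each mark is 1 gene and black lines are medians. The medians of gluconeogenesis, -2.07, -1.32 and -2.68, are the lowest in each library, and those of glycolysis, 0.03, -0.14 and 0.40, lie near 0.

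Of 48 further genes of the same pathways, 42 were tested, and 3 rose and 10 fell, against 8.65 and 7.62% of all genes. Their median log2 fold change was -0.57. Slc37a4, which carries glucose-6-phosphate to the G6pc enzyme, fell 9.69-fold from 274, 261 and 287 CPM in sham to 20.3, 39 and 25.3 CPM in IR24h (log2 fold change -3.28, SE 0.33, edgeR adjusted p = 0.00154). It was the only gene of gluconeogenesis called among 4 tested outside the 6 above. Among further genes of glycolysis and sugar phosphate handling, Pgm2 (ENSMUSG00000025791), a phosphoglucomutase, rose most. It had 1.43, 1.78 and 1.83 CPM in sham and 31.4, 96.2 and 35.1 CPM in IR24h (32.2-fold, log2 fold change 5.01, SE 0.54, edgeR adjusted p = 0.0022), and 13.6% of its exon bases lie opposite Itgb3bp. Pgm1 rose by 1.5 on the log2 scale, while Ldhd, Pgp and Galm fell, with log2 fold changes of -1.70, -1.63 and -1.59. The implied length of Pgp was 5055 bases in sham and 1027 bases in IR24h, and 42.1% of the exon bases of Ldhd lie opposite Znrf1.

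Among 17 further tested genes of pyruvate metabolism and the cycle, 1 rose and 6 fell, beside the same shares over all genes. The phosphatases that reactivate pyruvate dehydrogenase moved apart, as Pdp1 rose by 1.34 and Pdp2 fell by 2.11 on the log2 scale. Pdp2 had 93.2, 90.1 and 61.2 CPM in sham and 11.1, 29.9 and 15.3 CPM in IR24h (edgeR adjusted p = 0.0165), while Pdp1 had 2.93 to 3.43 CPM in sham and 6.21 to 10.8 CPM in IR24h (edgeR adjusted p = 0.0351). Me1, the cytosolic malic enzyme, fell by 2.47, Ogdhl, a relative of Ogdh, by 1.85, and Sdhd, a membrane subunit of succinate dehydrogenase, by 1.29. Dld, the third enzyme of the pyruvate and oxoglutarate dehydrogenase complexes, fell by 1.11 (edgeR adjusted p = 0.0425). Of Me1's coding sequence, 52.5% is shared with other genes.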

How the data were processed

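RNA-seq of 3 sham and 3 IR24h renal cortex samples was used. The labels name an AMBION kit for RNA extraction and a TruSeq guide for the libraries. Per the submitters' processing notes, CASAVA 1.8 and TopHat2 2.0.6 were used, and mm10 and GRCh38 are both named as builds; the gene identifiers are those of mouse. The sources used here do not name the counter, its annotation, its use of strand or its handling of reads with several matches. The measurement was raw counts per gene, deposited by the authors, per the file headers. The deposited FPKM values, scaled by the authors for gene length and library total, served only to recover the implied gene length (genes with at least 5 counts, tolerance 0.01 on the log2 scale). Of 22040 genes, 83 without a sham value were left out, and 21880 identifiers were found in GENCODE M21 (GRCm38, the assembly of mm10), which gave coordinates, exon bases and shared stretches. Implied lengths exceeded the exon bases for many genes, so levels per kilobase use the latter.

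The test was the quasi-likelihood test of edgeR 4.0.16 (R 4.3.3, limma 3.58.1) on the counts of all 6 libraries, without covariates, using TMM scaling and the filter filterByExpr. Benjamini-Hochberg adjustment covered all 13609 genes tested, with calls at 0.05, and 4645 genes had an unadjusted p under 0.05. SEs are the log2 fold change over the root of the F statistic. The script was checked on simulated data. Ratios used counts plus 0.5 and an exact permutation test. Coverage is the counts given, in total and outside the mitochondrial genome, and these limit precision through counting error only. Alternatives were other scalings, filters, DESeq2 1.42.0, limma-voom, a replicate block, genes of equal implied length and each library left out. Values in every library are given for genes called, genes of a pair and the most abundant gene of each group by mean counts per length in sham. Of the further pathway genes, those called are named, at most 6 per list by size of log2 fold change. The values of 1 further pathway gene are not reported here. A second identifier with the symbol Aldoa held 1 to 9 counts and was not tested. Genes, lists and pairs were chosen with earlier results of these data known. Tables and plots were made in Python 3.11.15 with matplotlib 3.10.9, SciPy 1.17.1, NumPy 2.4.6 and pandas 2.3.3.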

Additional observations from a re-analysis of the deposited data

How the results depend on the processing

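Library size as the only scaling gave 398 genes higher and 611 lower and, of the 42 genes, 0 higher and 5 lower. DESeq2 gave 2073 genes higher and 1695 lower, with all 17 calls kept. Limma-voom gave 3 of the 42 higher, losing Hk2 and Pdk4, with 1006 genes higher and 1197 lower over the whole table. Genes of equal implied length, 35 of the 42, gave 7 lower, since Mdh1, Pcx, Pfkm and Idh3b were not among them and Dlat lost its call. Among all genes of equal implied length, 879 were called higher and 806 lower. The replicate number as a block gave 3 of the 42 higher and 7 lower, with 814 genes higher and 843 lower over the whole table. The pairing rests on numbers alone, since deviations of same-numbered libraries correlated at -0.109, 0.12 and 0.233 and sham library 1 correlated best with IR24h library 2 (0.179). Leaving out 1 library gave 246 to 3297 genes higher and 196 to 3382 lower, and 0 to 8 of the 42 higher and 3 to 17 lower, with the highest values without IR24h library 2. The cause was not tested.

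Directions that changed were all of genes or ratios not called. With library size only, log2 fold changes were -0.18 for Hk1, -0.25 for Gpi1, -0.32 for Pfkl, -0.43 for Pdk1 and -0.25 for Cs. Pck2 was at 0.10 with upper-quartile scaling, 0.01 without mitochondrial genes, 0.14 with a filter of 10 CPM and 0.00 with equal implied lengths. Over the fits that leave out 1 library, log2 fold changes ran from -0.04 to 0.64 for Hk1, -0.00 to 0.26 for Pfkl, -0.13 to 0.90 for Pklr, -0.09 to 0.17 for Pdk1, -0.90 to 0.11 for Pck1, -0.22 to 0.26 for Pck2 and -0.87 to 0.06 for Dlst. Log2 differences of ratios ran from -0.17 to 1.17 for Pkm/Pklr, -0.44 to 0.00 for Ldha/Ldhb, -0.42 to 0.49 for Pdk3/Pdk2, -1.29 to 0.35 for Pck1/Pck2 and -0.05 to 0.50 for Sucla2/Suclg2.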
